A study of Bos taurus with 2 samples.

Results

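The miR-29 family is a small set of conserved microRNAs (miRNAs, short RNAs that silence matching mRNAs) made from paired genes. Its members were chosen by name: every bovine miRNA on the array called bta-miR-29a, bta-miR-29b, bta-miR-29c or bta-miR-29d, with or without an arm suffix (bta stands for cattle and is left out below). This gave 4 of the 670 miRNAs on the array. Cow milk whey from Holstein animals was spun at 10000 g for 90 min at 4 °C, as labelled. The labels name this step ultracentrifugation, a term mostly kept for much higher forces, so what the pellet and the supernatant hold is uncertain to that extent. The pellet was washed in buffer 2 times and is called exosome in the labels (small membrane vesicles shed by cells). The other group is the whey supernatant left after that spin, and both groups share breed, milk source and RNA kit. RNA from 3 milk samples was mixed equally, 40 ng was labelled with the dye Cy3, and each fraction was read on 1 array of a 1-colour bovine miRNA design. There is therefore no replicate array, no test and no p-value here; each ± is the SD over the spots that repeat a probe on 1 array, so it covers technical error alone. With so few arrays, their number limits the precision.

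A miRNA finds its target mRNAs mainly through its seed, a short stretch near its 5′ end, and miRNAs with the same seed form a family. miR-29 is known for repressing collagens and other matrix proteins and the DNA methyltransferases DNMT3A and DNMT3B, and it has been studied in mammary epithelial cells for its effect on DNA methylation. Family members differ outside the seed, which is where an array probe must tell them apart.

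The probes are shown first because some of them are alike in most of their bases. How far their differing bases shape the readings was not tested. Each is the longest probe of its miRNA in the array design, written 5′ to 3′ as DNA, so its 3′ end lies opposite the 5′ part of the miRNA. The capitals mark a run of 7 bases that the longest probes of all 4 members share and that lies in the part opposite the seed region. It occurs in 5 of 1465 miRNA probes on the array (0.341%), and all 5 belong to these 4 miRNAs. The miR-29e probe is added for comparison, since miR-29e carries the family name but falls outside the members and lacks the run.
miR-29a: taaccgatttcagATGGTGC
miR-29b: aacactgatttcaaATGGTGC
miR-29c: taaccgatttcaaATGGTGCta
miR-29d: taatcgatttcaaATGGTGC
miR-29e: aaacactgatttcaaatgatg

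Read as the RNA that pairs with the whole probe, 5′ to 3′, the longest miR-29c probe faces the stretch below, and the capitals mark the same run. It is printed because it is the longest of the member probes.
miR-29c target stretch: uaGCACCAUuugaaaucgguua

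Counted from 1 at the 5′ end of the first-named probe, the longest miR-29a and miR-29c probes differ by 1 substitution, G13A, over the 20 bases where they overlap. The longest miR-29c and miR-29d probes also differ by 1 substitution, C4T, over 20 bases, and share a run of 16 bases. The miR-29b probe matches the miR-29c probe only when shifted by 1 base, with 3 substitutions (A2T, C3A and T6C) over 20 bases. The longest miR-29b and miR-29e probes share a run of 17 bases and, shifted by 1 base, differ by G18A over 20 bases. Signal can therefore be shared between these probes, and how much of it is shared was not tested.

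Whether miR-29 was seen in each fraction was asked first. miR-29a, miR-29b and miR-29c were detected on the exosome array, and none of the 4 members was detected on the supernatant array. miR-29d was detected on neither. A probe counted as detected where at least 50% of its spots carried the flag of the scanner software for well above background; 1 detected probe made its miRNA detected. By that rule 9.85% of all 670 miRNAs were seen in exosome, 12.7% in supernatant, 5.37% in exosome alone and 81.9% in neither. The flag began at a processed signal of 17.7 scanner units for exosome and 18.6 for supernatant. The members' values are below, in the same units and without scaling between arrays.

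miR-29c was the member whose probes were both detected. Its 22-base probe read 56.8 ± 6.55 on the exosome array over 30 spots, with a lowest spot of 42.8, a median of 56.6 and a highest of 67.2. On the supernatant array the same probe read 7.38 ± 3.40 over 30 spots, from 0.759 through a median of 7.97 to 14.3. Without scaling, every exosome spot was brighter than every supernatant spot. The 21-base miR-29c probe behaved alike, at 50.3 ± 6.16 (35.2 to 62.0, median 49.98) on the exosome array and 4.88 ± 3.79 (-0.99 to 13.1, median 4.05) on the supernatant array. Here too the spot ranges did not overlap.

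miR-29a was detected through its longer probe only. That 20-base probe read 46.1 ± 5.27 over 30 spots of the exosome array, with a lowest spot of 36.4, a median of 46.1 and a highest of 57.9. Over 28 spots of the supernatant array it read 4.78 ± 2.66, from 0.50 through a median of 4.71 to 10.5. The ranges did not overlap. The 19-base miR-29a probe, which lacks the last base of the other, read 9.45 ± 3.56 on the exosome array, where 0 of 30 spots were well above background. On the supernatant array it read -2.11 ± 3.31, and its ranges overlapped slightly, since the dimmest exosome spot (3.55) lay below the brightest supernatant spot (4.42).

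miR-29b, which the genome encodes at a pair of places, was the member closest to the detection limit. Its 21-base probe read 23.7 ± 3.65 over 29 spots of the exosome array, with a lowest spot of 16.4, a median of 22.9 and a highest of 31.9, and 28 of these spots were well above background. On the supernatant array it read 5.76 ± 4.42 over 30 spots, from -2.79 through a median of 4.97 to 12.9. The ranges did not overlap, but the gap between them was only a few units. The 20-base miR-29b probe stayed at background on both arrays, at 1.73 ± 2.87 (exosome, 29 spots) and 0.66 ± 3.102 (supernatant, 30 spots), with overlapping ranges.

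miR-29d gave no signal above background with either probe. The 20-base probe read -0.029 ± 2.66 for exosome and -1.95 ± 3.19 for supernatant, over 29 spots each. The 19-base probe read -1.61 ± 3.57 and -1.62 ± 3.66 over 30 spots each. These ranges overlapped widely. The miR-29d probe thus stayed dark on the array where the miR-29c probe, which differs from it by C4T over the shared bases and runs 2 bases longer, was well above background. In the same way miR-29e, whose longest probe differs from that of miR-29b by G18A, read 0.85 ± 3.30 over 59 spots of the exosome array and 0.44 ± 3.38 over 60 spots of the supernatant array. miR-2446 was the only other miRNA on the array with a probe sharing at least 10 bases in a row with a member (12 with miR-29c), and it read -0.72 ± 3.30 and -0.20 ± 2.86 on the exosome and supernatant arrays.

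**Figure D1:**
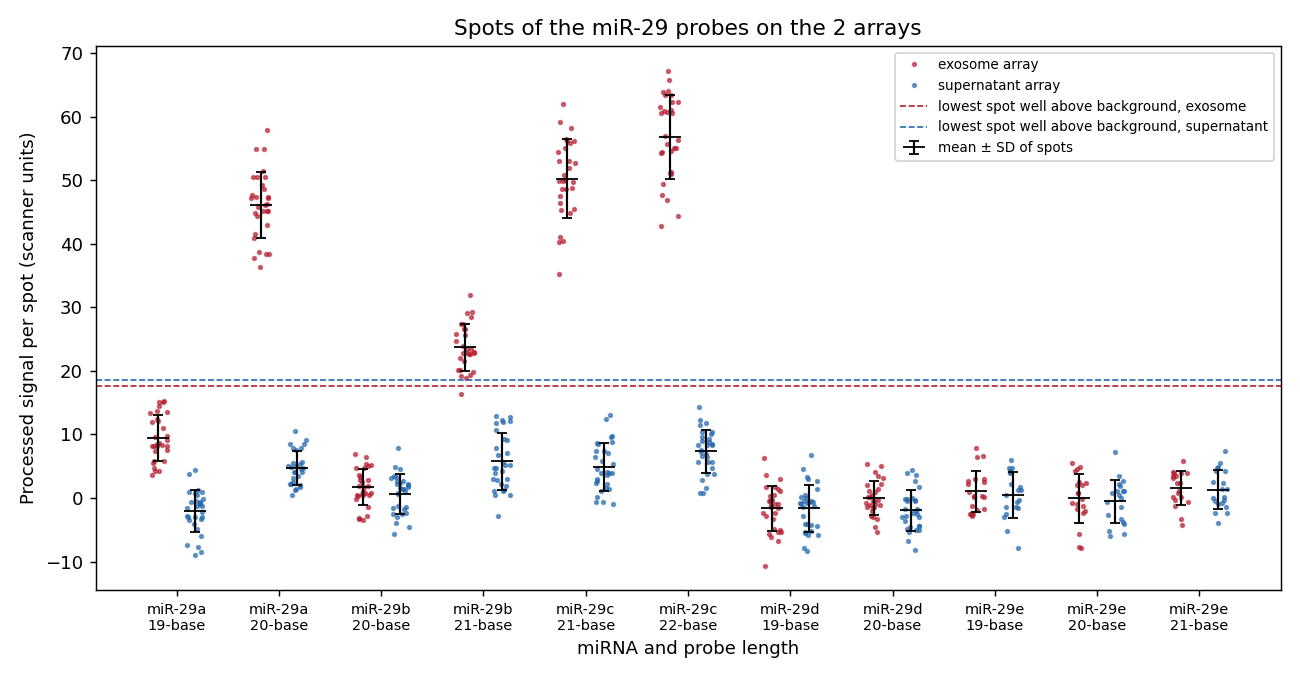
Processed signal of each spot (vertical axis, scanner units) for each miR-29 probe (horizontal axis, by miRNA and probe length) on the exosome (red) and supernatant (blue) arrays; black bars are the mean ± SD of spots, and dashed lines the lowest spot flagged well above background. Without scaling, the exosome spots of the longer miR-29a and miR-29b probes and of both miR-29c probes stand clear of the supernatant spots. miR-29d and miR-29e lie around 0 on both arrays.

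Counted over all miRNAs and without scaling, 6.42% had at least 1 probe whose exosome spots all exceeded its supernatant spots, as did 3 of the 4 members. With every probe required for detection, 5.22% of all miRNAs and 1 member, miR-29c, were detected on the exosome array. For the spots of every probe to separate was rarer, at 2.39%, and miR-29c was the 1 member that did. A single detected probe was common: of the 36 miRNAs detected on the exosome array only, 24 had 1 detected probe, as miR-29a and miR-29b did.

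The dim supernatant signals lay near the level of the control spots. The spots of the control named NegativeControl read 3.71 ± 3.02 beside the supernatant and 4.67 ± 3.24 beside the exosome RNA, so the supernatant readings of the longer miR-29a probe (4.78), the longer miR-29b probe (5.76) and the shorter miR-29c probe (4.88) were higher by less than 1 SD of single control spots. The 22-base miR-29c probe, at 7.38, was higher by more than that. The software also flags spots as positive and significant, and 26 of the 30 supernatant spots of this probe carried that flag. So did 50.1% of the NegativeControl spots of the same array. If this flag replaced well above background, miR-29a, miR-29b and miR-29c counted as detected on both arrays, as did 27.0% of all miRNAs in the supernatant. The means of these 4 probes all lay above the mean of the control spots, and a mean over about 30 spots varies less than a single spot. The shorter miR-29a probe (-2.11), the shorter miR-29b probe (0.66) and both miR-29d probes (-1.62 and -1.95) lay below that control mean. A low miR-29 level in the supernatant is thus neither shown nor shut out by these readings.

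The genes fall into 3 close pairs. The array design places its probes in HGSC Btau_3.1; except for miR-29b, the placed interval falls 1 base short of the probe's length, so either end may be off by 1. miR-29a lies on chromosome 4 from 97826855 to 97826873, and 364 bases separate it from a miR-29b site at 97827238 to 97827258. The other miR-29b site is on chromosome 16 from 73886710 to 73886730, followed after 540 bases by miR-29c at 73887271 to 73887291. miR-29e (73969906 to 73969925) and miR-29d (73970446 to 73970464) form the third pair, 520 bases apart and 82614 bases beyond miR-29c. All 3 miRNAs of the first 2 pairs were detected on the exosome array, and both miRNAs of the third pair were on neither. One mature miR-29b comes from both sites, so its signal cannot be assigned to either. RefSeq (assembly ARS-UCD2.0), consulted here only to name genes nearby, puts the genes of the miR-29a pair in the long noncoding RNA gene LOC107131356. The miR-29b-2 and miR-29c genes overlap no other listed gene and have CD34 and CD46 as neighbours. The miR-29d and miR-29e genes overlap the protein-coding gene LOC518224.

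**Figure D2:**
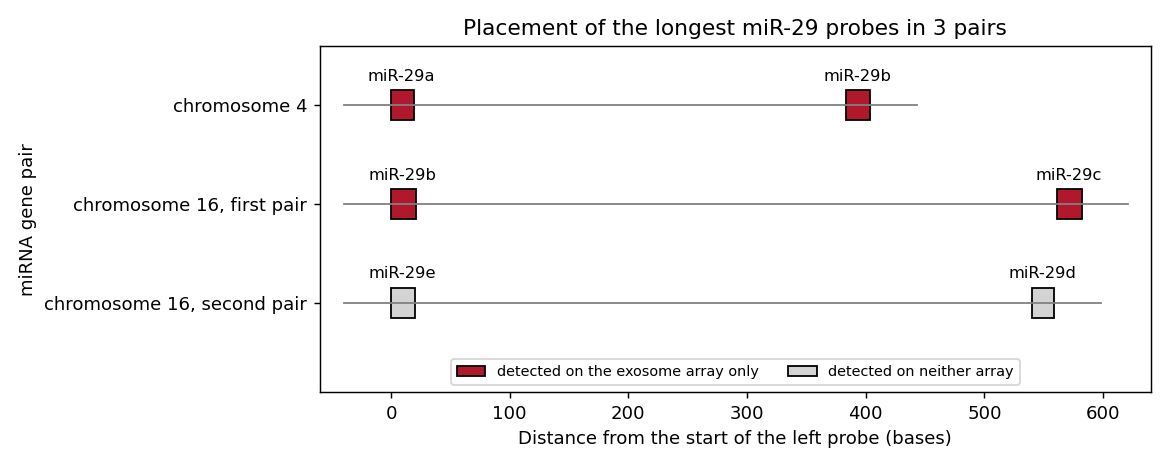
Placement of the longest miR-29 probes in 3 pairs, by distance in bases from the start of the left probe (horizontal axis), with the pairs as rows; red boxes are miRNAs detected on the exosome array only, grey boxes miRNAs detected on neither. The gaps are 364, 540 and 520 bases, and only the pair of miR-29e and miR-29d is grey.

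How far the fractions differ can be given only as a bound, because each detected member was seen on 1 array. The bound over all probes sets the exosome signal, averaged over the probes of the miRNA, against the higher of its own supernatant signal and the lowest signal of any detected miRNA on the supernatant array, 7.04. Undetected miRNAs read up to 15.5 there, since averaging with a dark probe lowers a detected miRNA too, so this bound is a lenient one; a stricter one by probe follows. miR-29c read 53.5 ± 6.36 on the exosome array over 60 spots and 6.13 ± 3.603 on the supernatant array over 60 spots, which put its lenient bound at 7.61-fold higher in exosome without scaling. miR-29a read 27.8 ± 4.50 (60 spots) and 1.34 ± 3.00 (58 spots), with a lenient bound of 3.95-fold. miR-29b read 12.7 ± 3.29 (58 spots) and 3.21 ± 3.82 (60 spots), with one of 1.81-fold. The dark miR-29b probe enters that average. More vesicles in a fraction and more miRNA in each vesicle cannot be told apart in these pooled RNAs.

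These bounds depend on how the arrays are put on 1 scale. The main scaling takes the 53 probes seen in both fractions and divides each array by their 75th percentile, 473 for exosome and 15030 for supernatant, which raises every log2 difference by 4.99. After it the lenient bounds were 7.92 on the log2 scale for miR-29c, 6.97 for miR-29a and 5.84 for miR-29b, or 242-fold, 125-fold and 57.4-fold. The median of the 3 was 6.97, against 5.79 over the 75 miRNAs with a value or bound and 6.67 over the 36 exosome-only miRNAs. Without scaling the median of the 3 was 1.98, against -1.56 over the 120 miRNAs that then had a value or bound and 1.68 over the 36. The sets differ because a bound was left out where it pointed away from the array that detected the miRNA. All 36 exosome-only miRNAs kept a bound both ways. The miRNAs missing from the set of 75 were thus supernatant-only ones, and the median of 5.79 leaves them out. By the main scaling an exosome excess of 2-fold or more, as a value or a bound, was held by 7.76% of all miRNAs and by 3 of 4 members. Without scaling it was held by 5.07% and by 2 members, miR-29a and miR-29c. Under the main scaling all 36 exosome-only miRNAs passed, the lowest at a log2 bound of 5.15. The 3 members thus passed by being exosome-only, and this count adds nothing to their detection.

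The labelling controls (RNAs added before the dye) were 3.01-fold brighter on the exosome array, and the hybridisation controls stood at 0.946-fold, exosome over supernatant. The spot ranges above were compared without scaling. For the longer miR-29b probe and both miR-29c probes, the lowest exosome spot was less than 3.01 times the highest supernatant spot. The labelling controls would thus close those gaps. For the longer miR-29a probe it was more than 3.01 times. Scaled to the labelling controls, miR-29c kept a log2 bound of 1.34 and miR-29a one of 0.39, while miR-29b had none above 1-fold; 1.79% of all miRNAs and miR-29c alone of the members were at least 2-fold higher. Scaled to the hybridisation controls the log2 bounds were 3.01, 2.06 and 0.93 for miR-29c, miR-29a and miR-29b.

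A stricter bound uses the longest probe and the dimmest detected probe of the supernatant array, which read 18.8. Without scaling, the 22-base miR-29c probe was then at least 3.02-fold higher in exosome, the 20-base miR-29a probe at least 2.45-fold and the 21-base miR-29b probe at least 1.26-fold. With the main scaling these became at least 95.9-fold, 77.8-fold and 40.03-fold. With the labelling controls in its place, miR-29c was left at a bound of 1.005-fold, and miR-29a and miR-29b had none. Under that combination the arrays give no lower limit on an exosome excess of miR-29a or miR-29b, and for miR-29c one that barely passes equality. By the labelling control dmr_285 alone, miR-29c would have no such limit either.

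**Figure D3:**
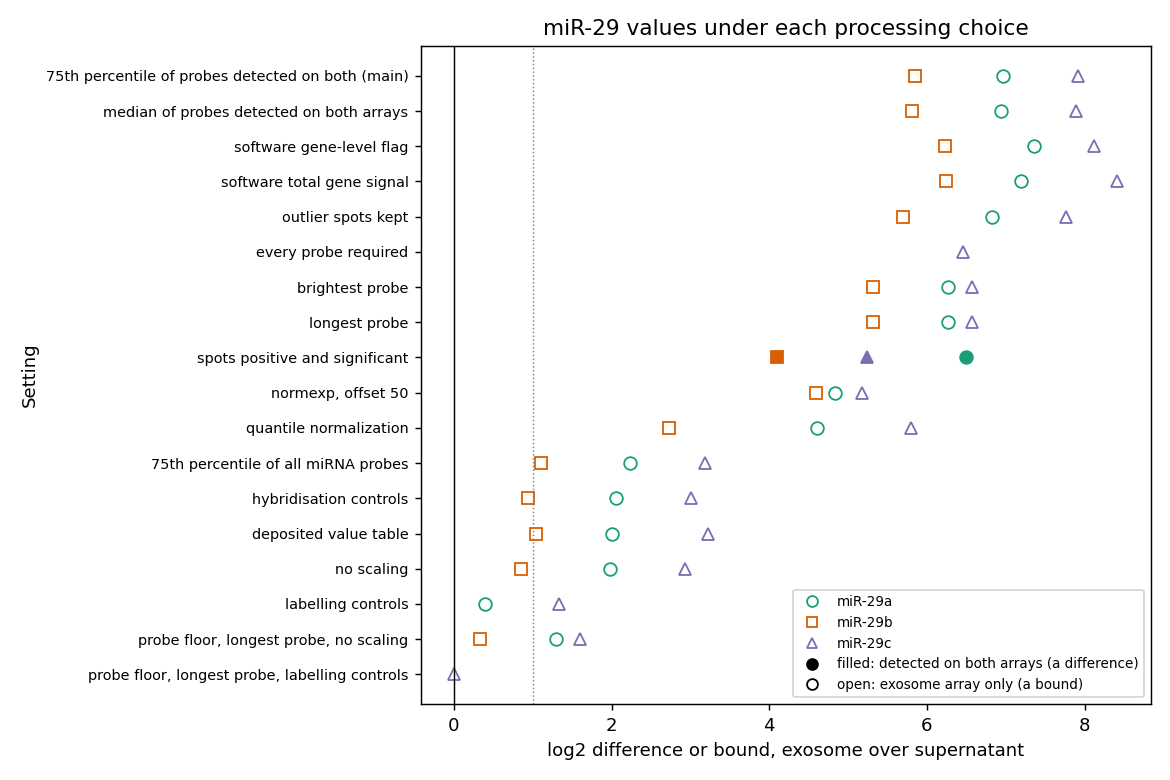
log2 difference or bound, exosome over supernatant (horizontal axis), of miR-29a, miR-29b and miR-29c under each processing choice (vertical axis); open symbols are bounds (lenient except in the rows named probe floor), filled symbols differences of miRNAs counted as detected on both arrays, and the dotted line marks 2-fold. The values run from 8.41 for miR-29c with the software's total signal down to 0.0071 for miR-29c with the strict bound and the labelling controls; a missing symbol means that no bound above 1-fold, or no detection, was left.

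The scanner software's own summary gave the same detection. Its total gene signal was 45.4 for miR-29c, 19.6 for miR-29a and 10.1 for miR-29b on the exosome array, and 0.1, the value it gives to a miRNA that it did not call detected, for miR-29d. On the supernatant array all 4 members stood at 0.1. The deposited value table holds these as log2 of the total over 0.1: 8.83, 7.61 and 6.65 for miR-29c, miR-29a and miR-29b on the exosome array and 0 for the rest. A 0 there means not detected, so the table's differences between fractions are no measured fold changes.

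Among the 36 miRNAs detected on the exosome array only, ordered by their bound from the lowest, miR-29b was number 6, miR-29a number 22 and miR-29c number 28. The miRNAs with bounds nearest to miR-29a, over these 2 arrays, were miR-24-3p (7.03 on the scaled log2 scale) and let-7d (6.91). Those nearest to miR-29b were miR-2284d (5.84) and miR-23b-3p (5.79). Those nearest to miR-29c were miR-103 (8.24) and miR-20a (8.27). All share the same floor on the supernatant side except miR-2284d, which read 13.4 there, so for the others the likeness is mainly one of exosome brightness.

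**Figure D4:**
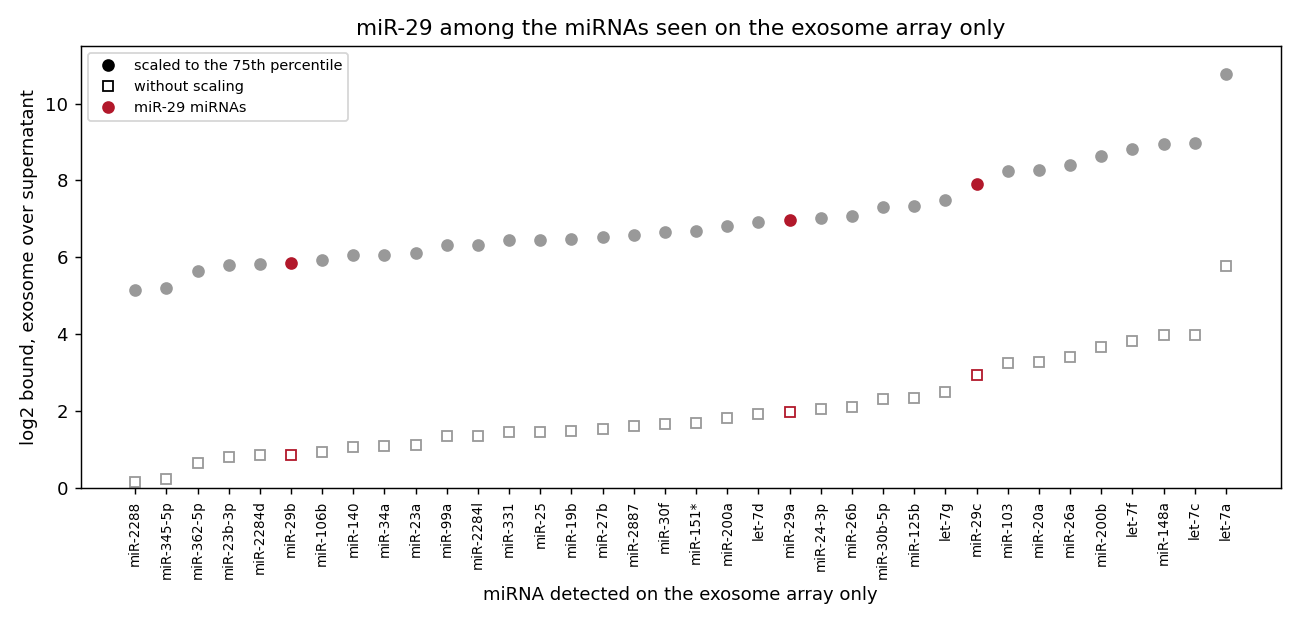
Lenient log2 bound, exosome over supernatant (vertical axis), of each of the 36 miRNAs detected on the exosome array only (horizontal axis, in order of the bound); filled circles are scaled to the 75th percentile, open squares are without scaling, and red marks miR-29. The miR-29 miRNAs are spread from number 6 to number 28 of the order and do not cluster at an end.

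G and C made up 45.0% of the longest miR-29a probe, 38.1% of that of miR-29b and 36.4% of that of miR-29c, with miR-29d just below. Over the array the medians were 46.9% where a miRNA was seen in exosome alone, 71.4% in supernatant alone, 70.7% in both and 47.4% in neither. The members' probes of 20 to 22 bases were also longer than the medians of these sets, which were 18, 14, 13 and 17 bases. The main scaling rests on probes of the miRNAs seen in both. By these medians such probes were shorter and richer in G and C than those of miR-29. Whether this affects the scaled bounds was not tested. At 20 bases, the miR-29d probe is as long as that of miR-29a.

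Other miRNAs linked to DNA methyltransferases or to matrix were read against the 81.9% of all miRNAs that neither array detected. Their targets need not be those of miR-29. Of 9 array entries, arms included, from a list known to repress DNA methyltransferases (miR-148a, miR-148b, miR-152, miR-126, miR-143, miR-101, miR-185 and miR-342), only miR-148a was detected and 8 were not, a share near that of the array. It was seen on the exosome array only, at 110.3 ± 8.23 over 59 spots, against 0.57 ± 3.02 over 60 spots of the supernatant array, with log2 bounds of 8.96 scaled, 3.97 unscaled and 2.38 with the labelling controls. Of 11 array entries linked to connective tissue growth factor and matrix (miR-21, miR-133a, miR-133b, miR-30b, miR-30c, miR-30d, miR-18a, miR-19a and miR-19b), 2 were seen in exosome alone, 1 in both fractions, 2 in supernatant alone and 6 in neither. The exosome-only pair was miR-30b-5p (35.1 ± 4.60 over 58 spots, against -1.40 ± 2.52 over 52) and miR-19b (19.7 ± 4.06 against -1.21 ± 3.65, 60 spots each). miR-30d, on both arrays, read 52.6 ± 5.93 (60 spots, exosome) and 121.6 ± 9.82 (59 spots, supernatant), a log2 difference of 3.78 scaled and -1.21 unscaled, so its direction turned with the scaling. The supernatant-only pair was miR-133a, at 78.9 ± 4.75 over 56 spots, and miR-133b, at 74.8 ± 5.42 over 55, both known from muscle. The list was thus split between the fractions.

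Marker miRNAs of cell types were read on both arrays. They bear on the cells that the RNA came from and cannot check the exosome label, and the array measures no vesicle protein. Of 7 mammary epithelial markers, 6 were detected on the exosome array, where 9.85% of all miRNAs were, and 3 of them there only. Without scaling the 7 summed to 918 in exosome and 247 in supernatant, and the exosome sum was 305 when scaled to the labelling controls. With those controls miR-141 (log2 difference -0.85) and miR-375 (-0.30) turned towards supernatant; miR-429 was on neither. Markers of leukocytes (6 on the array), erythroid cells (3), muscle (5) and endothelial and mesenchymal cells (7) were undetected on the exosome array, with unscaled summed signals from -5.41 to 3.37; with 9.85% detected over the whole array, lists this short can be dark without being particular. On the supernatant array 12.7% of all miRNAs were detected, and so were 3 of the 7 mammary epithelial markers, each on both arrays. In that fraction 1 leukocyte, 1 erythroid and 2 muscle markers were also detected, with summed signals of 15.7, 33.4 and 154. The endothelial and mesenchymal list was at -7.89. Lists this short limit what these counts can show as well. The part of these markers in the miR-29 readings was not tested.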

How the data were processed

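Both arrays lay on 1 slide, and their images were read by Agilent Feature Extraction 10.7.3.1, per the submitters' processing notes. The deposited scanner values are intensities on a linear scale, and the processed signal is background-subtracted and not scaled between arrays, per the file headers. The value table that the authors deposited is on a log2 scale: it equals log2 of the software's total gene signal over 0.1 to within 6.2e-06; other steps by the authors are not given in the sources used here.

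Outlier spots, 1005 and 1032 of 40200 miRNA spots on the exosome and supernatant arrays, were left out. Spots were averaged per probe and probes per miRNA on the linear scale, divided by the 75th percentile over probes detected in both fractions, and converted to log2. A miRNA's SD is the quadratic mean over its probes. No spot was saturated. Bounds that would point away from the array that detected the miRNA were left out, which fixes the sign of those given. Named miRNAs were all members, for each detected member the 2 exosome-only miRNAs with the nearest scaled bound, miRNAs with a probe sharing a run of at least 10 bases, and detected members of 2 lists. The part of the rule that compares mature sequences was not used here. Members and lists were chosen with earlier results of these data known. The steps were tested on simulated data. That test scored differences of miRNAs detected on both arrays, after a common shift was taken out, and calls of miRNAs without signal. It covered neither the size of the scaling shift nor the bounds, on which the miR-29 values rest. Alternatives covered detection, scaling, normexp background correction (offset 50), probe summary, the software's summaries and outlier spots; the stricter bounds were added after the data were seen. Software was R 4.3.3 with limma 3.58.1, and Python 3.11.15 with pandas 2.3.3, numpy 2.4.6 and matplotlib 3.10.9.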

Additional observations from a re-analysis of the deposited data

How the results depend on the processing

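For miRNAs seen on the exosome array only, bounds under 1-fold were left out. A bound that is given for them lies above 0 on the log2 scale by construction, and its sign shows no stability. With positive and significant spots, which give differences in place of bounds, miR-29a, miR-29b and miR-29c were higher in exosome. The NegativeControl spots would pass the 50% rule under this flag too, as 63.0% carried it beside the exosome RNA and 50.1% beside the supernatant. Supernatant readings of miR-29a (1.34) and miR-29b (3.21), averaged over probes, lay below the control mean of 3.71, and that of miR-29c (6.13) above it. For miR-29a and miR-29b these differences thus set exosome signal against background and are no measured fold changes. A value was missing for miR-29a and miR-29b with every probe required and for miR-29b with the labelling controls; with the strict bound and the labelling controls only miR-29c had one. The exosome array detected 1 member, miR-29c, with every probe required, in place of 3 (5.22% of all miRNAs, in place of 9.85%). The supernatant array detected 3 members with positive and significant spots, in place of 0 (27.0% of all miRNAs, in place of 12.7%). The median log2 value of the detected members, 6.97, became 7.35 with the software's gene-level flag, 7.20 with its total signal, 6.46 with every probe required (miR-29c alone), 6.27 with the brightest or the longest probe, and 5.24 with positive and significant spots. It became 4.83 with normexp, 4.61 with quantile normalization, 2.23 with the 75th percentile of all probes, 2.06 with the hybridisation controls, 2.01 in the deposited value table and 1.98 without scaling. It became 0.87 over 2 members with the labelling controls. The strict bounds, added after the data were seen, gave 1.29 without scaling and 0.0071 with the labelling controls (miR-29c alone). The median of probes detected on both arrays and outlier spots kept moved it by less than the spread between spots. The normexp offset of 50 exceeds the exosome signals of miR-29a and miR-29b. The cause of the other changes was not tested. The signal over background limits the supernatant side: no spot of a member was well above background there.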
